A study of Mus musculus with 12 samples.

Results

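The Ctr9 ChIP-seq of NIH3T3 cells, an established line of mouse fibroblasts, gave 22016 peaks, and 455 of them (2.07%) were at least 4000 bp wide. These 455 very broad Ctr9 domains were chosen by width alone, as the end minus the start of the peak in the deposited list, and they held 20.8% of all bases under Ctr9 peaks in these cells. The domains lay over some of the most highly expressed genes of the fibroblast, among them genes for ribosomal proteins, splicing factors and translation factors. They also lay over genes with a higher TPM in these cells than in mESCs, such as Prrx1, Hmga2, Fgf7 and Col1a2. Such genes were not more common there. Of the 360 genes assigned to domains with a TPM, 20.0% were 2-fold or more higher in NIH3T3 cells. Among genes assigned only to narrower peaks the share was 21.1%. Of 12 fibroblast markers, with a median of 175 TPM in NIH3T3 cells, 5 carried a domain. A domain lay on 2.07% of all protein-coding genes and on 17.4% of those above 100 and up to 1000 TPM. The series holds 12 samples of mouse cells, of which 9 have a processed file: 7 peak lists (from NIH3T3 cells Ctr9-GFP and H3K27ac, and from mESCs of the E14 line the same pair with RNAPII Ser5p, RNAPII Ser2p and NELFA-GFP) and 2 RNA-seq tables, with 3 input libraries not used here. Ctr9 was detected with an anti-GFP antibody through a GFP tag knocked in at the end of the gene, in pools of GFP-sorted cells rather than in single clones, and NELFA through a GFP fusion in mESCs. The labels name no treatment, and both lines were kept in medium with LIF. Every list and table comes from 1 library without a replicate, so no test between conditions was possible, every difference below is a difference between 2 libraries, and no value carries a replicate error. Intervals given for shares are exact Clopper-Pearson 95% intervals and cover counting error only.

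Ctr9 is a core subunit of the Paf1 complex, which travels with RNA polymerase II (RNAPII) along genes and takes part in the release of paused polymerase, in elongation and in events at the 3′ end. RNAPII phosphorylated on Ser5 of its tail repeats is typical of the start of genes and RNAPII phosphorylated on Ser2 of their later part, NELFA belongs to the complex that holds polymerase paused near the start, and acetylation of histone H3 at lysine 27 (H3K27ac) marks active promoters and enhancers. A broad domain of an elongation factor therefore means a long stretch of chromatin with continuous enrichment, in contrast to the short peaks that make up most of such a list.

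Short runs of the genome at the summits of the 4 widest domains are shown to place them. They come from the RefSeq sequence of GRCm38 (mm10), are read 5′ to 3′ on the minus strand, on which Fam227b, Tra2b, Prrx1 and Hmga2 lie, and have the 21 bases centred on the summit in capitals. The domain over Fam227b and Fgf7 had its summit inside the body of Fam227b and 10011 bp past the end of Fgf7, those of Tra2b and Prrx1 past the gene end, and that of Hmga2 inside the gene body.
Fam227b and Fgf7, chr2:126101121-126101271: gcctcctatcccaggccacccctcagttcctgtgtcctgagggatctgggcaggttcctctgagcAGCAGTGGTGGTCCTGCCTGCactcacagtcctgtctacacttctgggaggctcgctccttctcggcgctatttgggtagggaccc
Tra2b, chr16:22241864-22242014: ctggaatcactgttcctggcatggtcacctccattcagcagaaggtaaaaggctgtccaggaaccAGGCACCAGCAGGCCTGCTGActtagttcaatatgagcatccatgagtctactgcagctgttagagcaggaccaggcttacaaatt
Prrx1, chr1:163243911-163244061: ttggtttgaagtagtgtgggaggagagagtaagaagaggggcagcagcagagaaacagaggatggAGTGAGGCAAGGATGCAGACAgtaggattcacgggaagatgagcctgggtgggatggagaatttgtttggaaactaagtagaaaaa
Hmga2, chr10:120439460-120439610: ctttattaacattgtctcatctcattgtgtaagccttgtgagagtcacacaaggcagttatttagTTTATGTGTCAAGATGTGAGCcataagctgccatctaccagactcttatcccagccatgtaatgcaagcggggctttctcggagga
These 4 windows had a GC content of 61.6%, 50.3%, 47.7% and 43.7%. Over all bases of the domains the GC content was 45.7%, against 48.0% in the narrower Ctr9 peaks and 41.7% in the assembled chromosomes, and 20.4% of their bases were masked as repeats, against 18.1% and 36.4%.

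Of the miRNA hairpins RefSeq places on the assembled chromosomes (1005), 22 lay inside a domain, in 20 domains. Those with the mature forms below are a part of the 22, chosen after the list had been seen. Mature sequences are from RefSeq on GRCm38, with the seed (bases 2 to 8) in capitals. miR-93-5p and miR-106b-5p share a seed, and each of the others shown has a seed of its own. RNA-seq of whole transcripts does not measure mature miRNAs, so only the domain over each hairpin is known here.
mmu-miR-93-5p: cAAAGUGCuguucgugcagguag
mmu-miR-106b-5p: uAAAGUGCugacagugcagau
mmu-miR-25-3p: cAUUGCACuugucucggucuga
mmu-miR-31-5p: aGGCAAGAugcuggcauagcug
mmu-miR-21a-5p: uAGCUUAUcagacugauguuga
mmu-miR-199a-5p: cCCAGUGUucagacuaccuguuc
mmu-miR-199a-3p: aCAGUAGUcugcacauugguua
mmu-let-7b-5p: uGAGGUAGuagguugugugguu
mmu-miR-763: cCAGCUGGgaagaaccaguggc
The hairpins of miR-93, miR-106b and miR-25 sit together in Mcm7, a subunit of the replicative helicase, under a single domain of 8657 bp on chromosome 5 that mESC Ctr9 covered to 90.1%. The hairpins of miR-31, miR-21a, miR-199a, let-7b and miR-763 each lay in a domain with no mESC Ctr9 peak. Among all 455 domains 94 met no such peak. All the rest of the 22 hairpins, most of them not shown, lay in domains that met mESC Ctr9. Those of miR-21a, at the end of Vmp1, and of miR-199a, inside Dnm3 and its antisense RNA Dnm3os, were in domains covered to 100% by NIH3T3 H3K27ac, and those of miR-31, let-7b and miR-763 were in domains without any H3K27ac peak of these cells.

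The domains were 4004 to 56435 bp wide, with a median of 6026 bp and quartiles of 4787 and 8402 bp. At least 10000 bp were reached by 71 domains and 20000 bp by 13. Their fold enrichment at the summit ran from 3.71 to 47.8 with a median of 10.3, against medians of 4.17 for the 18582 peaks under 1000 bp, 5.47 for the 2159 peaks from 1000 to under 2000 bp and 6.70 for the 820 peaks from 2000 to under 4000 bp. Width and fold enrichment come from the same library and the same peak call, so these values describe the choice and carry no test. Across the 455 domains the Spearman correlation of width with fold enrichment was 0.37. The domains just inside the limit lay at Ube2s (4004 bp), Phkg1 with Chchd2 (4010 bp) and Chtop with Ilf2 (4011 bp), and the peaks just outside it at Zfp207 (3997 bp), Zfp385a with Itga5 (3993 bp) and Ivns1abp (3983 bp), with fold enrichments of 7.70 to 8.85 inside and 7.86 to 14.7 outside. The limit therefore cuts through a continuous range of widths.

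**Figure D1:**
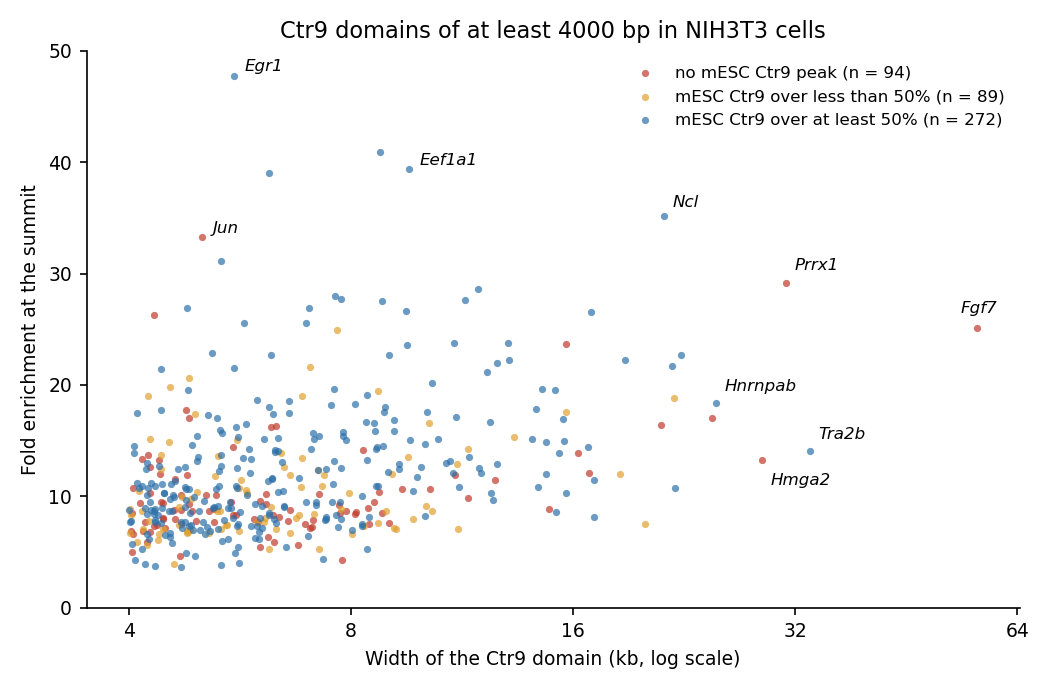
Width of each of the 455 Ctr9 domains (kb, log scale) against its fold enrichment at the summit, each point being 1 domain, colored by how much of it a Ctr9 peak of mESCs covered; names give the gene of highest NIH3T3 TPM there. The widest domain, at Fgf7 (56435 bp), had a fold enrichment of 25.1, and the highest fold enrichment, 47.8 at Egr1, belonged to a domain of 5557 bp.

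A protein-coding gene was assigned to 429 domains, as the gene that shared most bases with the domain over its body and the 5000 bp past its end; these leading genes numbered 361. At 185 domains 2 or more such genes were touched, and ChIP-seq does not tell the strands apart, so at 75 domains the leading gene was not the gene of highest TPM. The widest domain of all is an example. It spanned chr2:126049452-126105886, wholly inside Fam227b, a gene at 0.0408 TPM in NIH3T3 cells, and 74.0% of it lay in Fgf7, which runs on the opposite strand, encodes a growth factor that fibroblasts secrete for epithelial cells, and stood at 168 TPM in NIH3T3 cells and 0.102 TPM in mESCs. It began 14794 bp inside Fgf7 and continued for 14701 bp past the Fgf7 end. No mESC Ctr9 peak touched it, and NIH3T3 H3K27ac covered 2.82% of it.

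The other domains among the 15 widest that had a protein-coding gene lay at genes of 2 kinds. Some were far higher in NIH3T3 cells than in mESCs, and the others were within 2-fold between the 2 cell types. mESC Ctr9 covered more of the domains at the second kind, but Fn1 of the first (42.2% and 41.8%) and Ywhae of the second (43.9%) were close. Prrx1, a homeobox factor of the mesenchyme, carried a domain of 31100 bp and stood at 183 TPM in NIH3T3 cells and 0.0669 TPM in mESCs. Hmga2, an architectural chromatin protein, carried domains of 28838 and 24668 bp, at 244 TPM against 12.9 TPM. None of these 3 domains met a peak of any other list. Fn1, the gene of fibronectin, carried domains of 21894 and 18512 bp at 406 TPM against 75.7 TPM, and mESC Ctr9 covered 42.2% and 41.8% of them. The remaining protein-coding ones lay at genes within 2-fold in both cell types, most of them for RNA-binding proteins. Tra2b, a splicing regulator, had 33488 bp at 74.3 TPM in NIH3T3 cells and 122 TPM in mESCs. Hnrnpab, whose neighbor Phykpl was the leading gene by shared bases, had 25009 bp at 479 and 481 TPM. Sfpq, a paraspeckle protein, had 22383 bp at 197 and 171 TPM, and Hnrnpu had 21786 bp at 362 and 382 TPM. Ncl, the gene of nucleolin, had 21233 bp at 1054 and 1260 TPM. Sf1, Ywhae and Hnrnpk, with 21987, 20012 and 18821 bp, stood at 104, 520 and 371 TPM in NIH3T3 cells. mESC Ctr9 covered from 43.9% (Ywhae) to 95.8% (Sfpq) of the domains at these 8 genes.

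Several genes carried more than 1 domain. Hmga2 and Cemip, which takes part in the breakdown of hyaluronan, led 8 each, Prrx1 5, Snrnp70 4, and Fam227b, Fn1, Srrm2 and Flna 3 each. At Hmga2 the 8 domains added up to 106747 bp and covered 80.4% of the gene body of 115195 bp. At Prrx1 the 5 domains covered 80.0% of 68592 bp, and at Cemip the 8 domains covered 39.6% of 153646 bp at 54.9 TPM in NIH3T3 cells and 1.61 TPM in mESCs. Of the 455 domains 39 lay within 1000 bp of the next, so the number of domains at a gene also depends on where the peak caller ended a peak. Col1a2 and Col1a1 encode the chains of type I collagen and show how the limit treats genes of like level. Col1a2, at 1082 TPM, had 2 domains, of which the wider was 16270 bp, over 62.5% of its body. Col1a1, at 901 TPM, had 8 Ctr9 peaks over 39.7% of its body, but its widest peak was 2919 bp and it carried no domain. Col5a1 had a domain of 4707 bp among 62 peaks.

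The RNA level went with the presence of a domain. Leading genes with a TPM (360) had a median of 99.3 TPM in NIH3T3 cells, with quartiles of 26.4 and 328 TPM, against 19.9 TPM for the 4004 genes led only by narrower peaks, 13.8 TPM for the 10768 protein-coding genes at 1 TPM or more, and 0.801 TPM for all 21905. With the gene of highest TPM at each domain, a choice that favours high values and was made after the values were seen, the median was 152 TPM. By width, the medians of the leading genes were 21.5 TPM for peaks under 1000 bp, 30.8 TPM from 1000 to under 2000 bp, 53.3 TPM from 2000 to under 4000 bp and 99.3 TPM for the domains. Within the domains, width and TPM of the leading gene had a Spearman correlation of 0.217 (428 domains, some of which share a gene), and the order of widths followed that of the levels only weakly.

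Read from the genes, a domain lay on the body of 454 of 21905 protein-coding genes, which is 2.07%. That share is over genes of every RNA level, and the shares by level follow. Of the 103 genes above 1000 TPM, 69 carried a domain (67.0%, 95% CI 57.0 to 75.9%). Of the 765 genes above 100 and up to 1000 TPM, 133 did (17.4%, 14.8 to 20.3%), and of the 5580 genes above 10 and up to 100 TPM, 148 did (2.65%, 2.25 to 3.11%). The share was 0.995% above 1 and up to 10 TPM, 0.980% above 0 and up to 1 TPM and 0.317% at 0 TPM. A Ctr9 peak of any width lay on 94.2% of the genes above 1000 TPM and on 70.7% of those above 100 and up to 1000 TPM, so that the shares with any peak and with a domain were farther apart at the middle levels than at the top. Among the leading genes of highest TPM were Eef1a1 (8791 TPM), Rps12 (4307), Rplp1 (3654), Tpt1 (3520), Ptma (3464), Rps3a1 (3378), Rps6 (3153), Rps26 (3133) and Rps20 (2862), and each of these domains met all 6 other lists. Of the 34 genes above 1000 TPM without a domain, 6 had no Ctr9 peak on the body. At the others the widest Ctr9 peak had a median of 2303 bp. The median gene length was 3329 bp for the 34 and 4143 bp for the 69 with a domain. Ppia, with 3083 TPM, was among the 34, with a widest peak of 3239 bp.

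**Figure D2:**
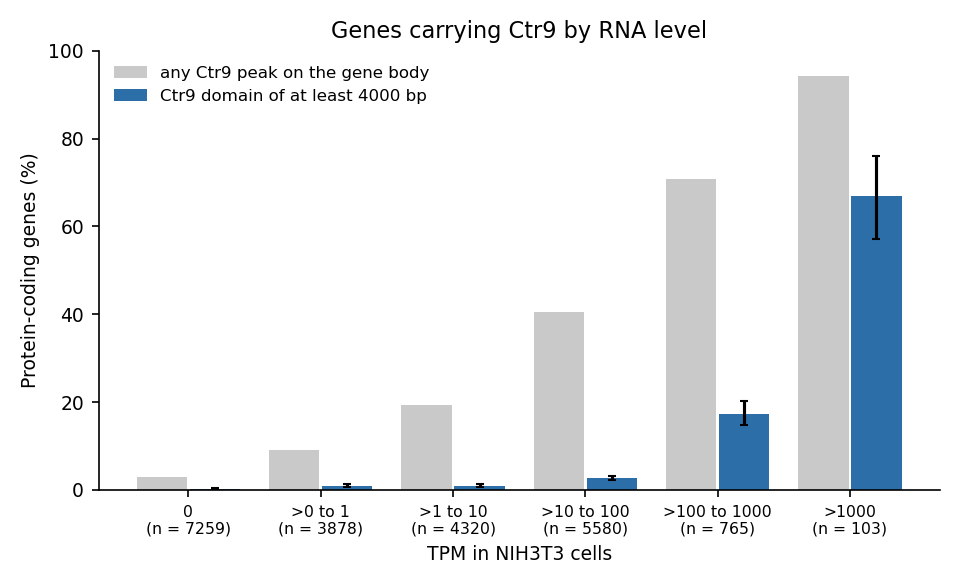
Share of protein-coding genes (%) with any Ctr9 peak (grey) or a Ctr9 domain of at least 4000 bp (blue) on the gene body, by TPM in NIH3T3 cells, with the number of genes under each pair; error bars are exact 95% intervals of the share with a domain. A domain lay on 67.0% of the genes above 1000 TPM and on 17.4% of those above 100 and up to 1000 TPM.

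By gene family, ribosomal protein genes were the largest group, with a domain on 57 of 85 (67.1%, 56.0 to 76.9%). Over all genes above 1000 TPM the share was 67.0%. Those with a domain had a median of 1763 TPM and those without 1190 TPM; the families were read from gene symbols after the values were seen, and many ribosomal protein genes have near-identical copies elsewhere that share reads. Of the heterogeneous nuclear ribonucleoprotein genes, which package and process pre-mRNA, 12 of 20 carried a domain (95% CI 36.1 to 80.9%), among them Hnrnpa1 at 1285 TPM, Hnrnpa3 at 545 TPM, Hnrnpa2b1 at 410 TPM and Hnrnpl at 103 TPM. Their levels ran from 102 to 1285 TPM, and the 8 without a domain had a median of 54.3 TPM. Of the SR splicing factors 7 of 11 carried a domain, with Srsf2 at 330 TPM, Srsf3 at 305 TPM and Srsf10 at 65.9 TPM, and the others had a median of 51.0 TPM. Of the 14-3-3 genes, whose proteins bind phosphorylated partners, 4 of 6 carried a domain. None of these 3 families had a member with a domain that differed by 2-fold or more between the 2 cell types. DEAD and DEAH box helicases had a domain at 4 of 53 genes, namely Ddx5, Ddx3x, Dhx9 and Ddx17, at 76.3 to 406 TPM, with a median of 19.1 TPM for the rest. Collagens had a domain overlapping 3 of 44, which were Col1a2, Col5a1 and Col23a1. Col23a1, listed at 0 TPM in NIH3T3 cells, was neither the leading gene nor the gene of highest TPM at any domain. It was counted only because a domain assigned to another gene overlapped its body.

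The lists of genes compared next were set up with the tissue in mind, and the share of all protein-coding genes with a domain was 2.07%. That share rose with the RNA level, to 17.4% above 100 and up to 1000 TPM and 67.0% above 1000 TPM. Translation factors had a domain at 11 of 15, including Eef1a1, Eif4g2 (15564 bp), Eef1g (15652 bp), Pabpc1 (12449 bp), Eif5 (11569 bp) and Eif4a2. Those with a domain had a median of 559 TPM and the others 204 TPM. Immediate early genes, which respond within minutes to serum and stress, had a domain at 12 of 29 with a median of 47.9 TPM, against 28.1 TPM for the others. At 7 of these the domain covered the whole gene (Fosb, Jun, Jund, Ier2, Fos, Btg1 and Btg2). Fos, with a domain of 4275 bp, stood at 3.27 TPM, Dusp1 at 4.22 TPM, Btg2 at 11.4 TPM, Jund at 23.6 TPM and Egr1, with the highest fold enrichment of all domains, at 73.6 TPM. Fosl1 and Fosl2, at 106 and 74.6 TPM, were at 0.287 and 1.14 TPM in mESCs. The levels at the immediate early genes with a domain ran from under 1 TPM to 612 TPM (Sgk1). Their range overlaps that of the translation factors with a domain, which began at 99.3 TPM (Eif5).

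Chaperones had a domain at 6 of 23, which were Hspa5, Hspa8, Hspa4, Hspa9, Hsp90aa1 and Hsp90ab1, at 270 to 2273 TPM. Glycolytic genes had a domain at 3 of 15 (Pkm, Gapdh, Eno1). Genes of the cytoskeleton and of adhesion had 7 of 45, with Actb (2120 TPM), Vim (1829 TPM), Tubb5, Flna, Tuba1c, Ahnak and Plec. The lists of chaperones, of glycolysis and of the cytoskeleton and adhesion had medians of 330, 303 and 177 TPM. Of all genes above 100 and up to 1000 TPM, 17.4% carried a domain. Of 12 YAP targets with a TPM, 2 carried a domain, Ccn1 and Amotl2. Genes of the extracellular matrix, although 40 of 48 were 2-fold or more higher in NIH3T3 cells than in mESCs, had a domain at 5 of 48: Fn1, Col1a2, Col5a1, Nid1 and Vcan, at 94.5 to 1082 TPM. Any Ctr9 peak lay on 28 of the 48. These counts took in any overlap of at least 1 bp with the gene body, and the domains at Eno1 and Actb shared 8 and 355 bp with it. Timp2 and Actn1 led a domain that lay off the body and were not counted. No gene of the Paf1 complex itself (0 of 6, at 19.5 to 36.7 TPM) and no pluripotency gene (0 of 14, median 0.0570 TPM) carried a domain, while 10 of the 14 pluripotency genes carried a Ctr9 peak of at least 4000 bp in mESCs, where their median was 266 TPM. The cells answered to their label: 12 of 12 fibroblast markers were 2-fold or more higher in NIH3T3 cells (median 175 TPM against 0.640 TPM), a domain lay on 5 of the 12 (Fn1, Prrx1, Vim, Col5a1 and Col1a2) and on none of Col3a1, S100a4 (3337 TPM), Pdgfra, Thy1, Col1a1, Twist1 and Pdgfrb, 8 of 8 embryonic stem cell markers were lower, and the markers of epithelium and of leukocytes had medians of 0 TPM in NIH3T3 cells.

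A Ctr9 peak of mESCs met 361 of the 455 domains, which is 79.3% (75.3 to 83.0%), where the share over all 22016 NIH3T3 Ctr9 peaks was 39.1% and that of the narrower peaks 38.3%. A wide peak meets another list more easily than a narrow one, so 2 measures without that advantage are given with it. The summit lay inside a mESC Ctr9 peak at 64.4% of the domains (59.8 to 68.8%), at 31.8% of all peaks and at 31.1% of the narrower peaks (30.5 to 31.8%), and 55.6% of the bases of the domains were under a mESC Ctr9 peak, against 33.9%. mESC Ctr9 covered at least 50% of 272 domains, less of 89, and none of 94. At the 361 domains that met mESC Ctr9, the widest mESC peak had a median of 4595 bp and the domains 6096 bp, and the domain was the wider of the pair at 272 and the narrower at 89. The domains were chosen for their width and the mESC peaks were not, so the choice itself favours the domain as the wider, and these widths are a description. Ctr9 peaks of at least 4000 bp in mESCs numbered 868, and 199 of the 455 domains (43.7%) met such a peak, where 6.35% of all NIH3T3 Ctr9 peaks did. The widest mESC peaks at a domain lay at Dhx9 with its neighbor Shcbp1l (22248 bp) and at Chd2 (20888 bp), and the domains that shared most bases with mESC Ctr9 were those of Tra2b (23700 bp), Hnrnpab (21785 bp), Sfpq (21452 bp), Hnrnpu (19636 bp) and Ncl (17321 bp).

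RNA levels differed with this overlap. Of 48 leading genes whose widest domain met no mESC Ctr9, 29 were 2-fold or more higher in NIH3T3 cells than in mESCs (60.4%) and 1 was lower, with medians of 55.0 TPM in NIH3T3 cells and a median log2 difference of 1.66 on the TPM + 1 scale. Of 233 leading genes whose widest domain was covered to 50% or more, 20 were higher (8.58%) and 23 lower (9.87%), with a median log2 difference of −0.10. Taking all 360 leading genes with a TPM, 72 were higher (20.0%) and 25 lower (6.94%), with a median log2 difference of 0.000217. Of the 4004 genes led only by narrower peaks 21.1% were higher and 11.9% lower. Over all 21905 protein-coding genes 11.3% were higher and 13.5% lower, and of those at 1 TPM or more in NIH3T3 cells 23.0% and 14.3%. With the gene of highest NIH3T3 TPM in place of the leading gene, 32 of 48 (66.7%) without mESC Ctr9 were higher. Of those covered to 50% or more, 20 of 227 (8.81%) were. Counted by domain, 63 of 80 (78.8%) and 23 of 263 (8.75%) lay at such a gene, a count in which Hmga2, Cemip and Prrx1 enter many times. Domains without mESC Ctr9 lay, besides those at Prrx1, Fgf7, Hmga2 and Col1a2, at Il1rl1, a receptor of interleukin-33, at 1055 TPM against 0.0106 TPM, at Csf1, a growth factor of macrophages, at 143 TPM against 0.0714 TPM, and at Tspan11, a tetraspanin, at 37.3 TPM and listed at 0 in mESCs; these 3 were named after their values were seen. Since Ctr9 and RNA were each measured once per cell type, the size of these differences cannot be set against a replicate error.

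**Figure D3:**
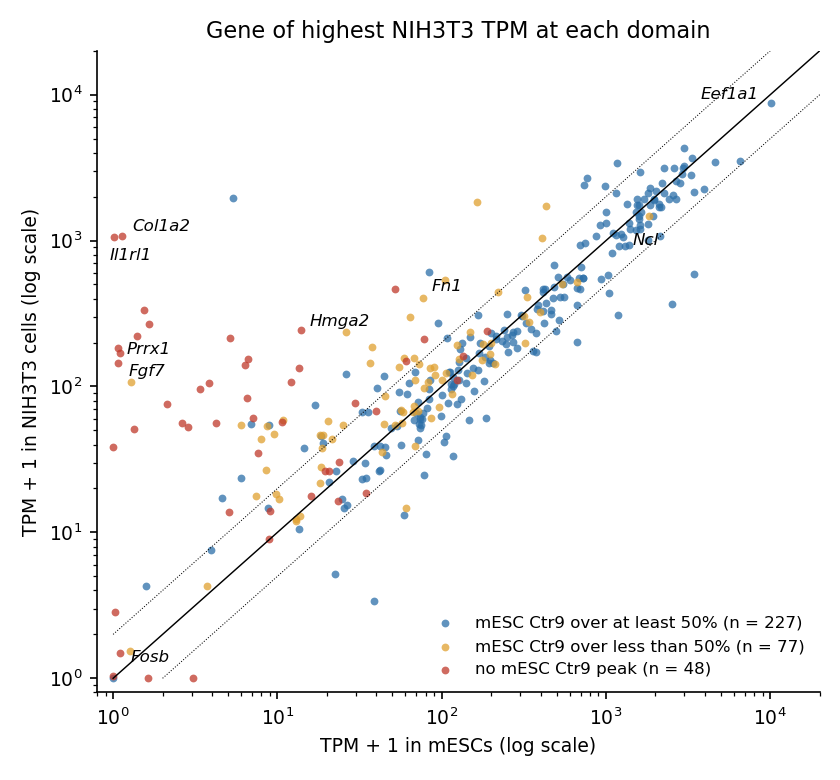
TPM + 1 in mESCs against TPM + 1 in NIH3T3 cells (both log scales) for the gene of highest NIH3T3 TPM at each domain, each gene once, at its widest domain, colored by how much of that domain a Ctr9 peak of mESCs covered; the solid line marks equal values and the dotted lines a 2-fold difference. Of the 48 genes without a mESC Ctr9 peak at the domain, 32 lie above the upper dotted line, and of the 227 covered to 50% or more, 20 do.

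NIH3T3 H3K27ac met 256 domains, which is 56.3% (51.6 to 60.9%), against 21.7% of all Ctr9 peaks of these cells. By the measures that do not favour width, the difference was smaller or turned. The summit lay in an H3K27ac peak at 25.5% of the domains (21.6 to 29.8%), at 18.5% of all Ctr9 peaks and at 18.4% of the narrower ones (17.9 to 18.9%), and H3K27ac covered 14.6% of the bases of the domains and 19.1% of those of the narrower peaks. Of the 34241 H3K27ac peaks of these cells 59 reached 4000 bp, so a single one could rarely span a domain, and the share of bases is bounded by this. Where H3K27ac met a domain, it mostly lay over a short stretch, and 199 domains met none. Among the 256 that met it, the median covered share was 23.0%, and only 35 domains were covered to 50% or more. Of the 256 domains with H3K27ac, 193 reached to 1 kb or less from where a protein-coding gene starts (75.4%), and of the 199 without it 20 did (10.1%). The domains most covered by H3K27ac were those at Dnm3, Vmp1 and Sox4, each at 100% and each without mESC Ctr9, and those at Lgals3 (94.2%) and Sgk1 (93.9%). H3K27ac and mESC Ctr9 were both present at 221 domains and both absent at 59. The medians that follow are taken over domains with a leading gene, so a gene that leads several domains enters several times. Where both were present the median TPM of the leading gene was 155 in NIH3T3 cells and 165 in mESCs. Where both were absent it was 74.6 TPM and 3.96 TPM, and Cemip and Prrx1 led 8 and 5 domains without mESC Ctr9.

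The other 4 lists are from mESCs, a different cell type, and so describe what stem cells carry at the same places. RNAPII Ser5p met 44.6% of the domains (40.0 to 49.3%), against 5.61% of all NIH3T3 Ctr9 peaks, and RNAPII Ser2p met 38.2% (33.8 to 42.9%), against 3.14%. The summit lay inside a Ser5p peak at 27.9% of the domains (23.8 to 32.3%), against 3.72% of all peaks, and inside a Ser2p peak at 23.3% (19.5 to 27.5%), against 1.92%. By bases the shares were 15.5% for Ser5p, against 4.03% in the narrower peaks, and 9.71% for Ser2p, against 1.95%. All 3 measures were thus higher at the domains for both forms of RNAPII, as they were for mESC Ctr9 and NELFA. mESC H3K27ac met 49.9% of the domains, against 11.1% of all peaks, held the summit at 10.5%, against 7.72%, and covered 6.34% of their bases, against 7.13% in the narrower peaks. NELFA met 34.9% of them, against 3.33%, held the summit at 4.40%, against 1.26%, and covered 2.11% of their bases, against 1.31% in the narrower peaks. Seen from the other lists, the domains took in 20.6% of the 1675 Ser2p peaks, 11.5% of the 4490 Ser5p peaks, 10.0% of the 1980 NELFA peaks, 2.14% of the 44748 mESC Ctr9 peaks and 1.32% of the 34241 NIH3T3 H3K27ac peaks. By number of lists, 59 domains met none of the 6, 119 met 1, 41 met 2, 42 met 3, 32 met 4, 47 met 5 and 115 met all 6, so the highest counts were at 1 list and at all 6.

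**Figure D4:**
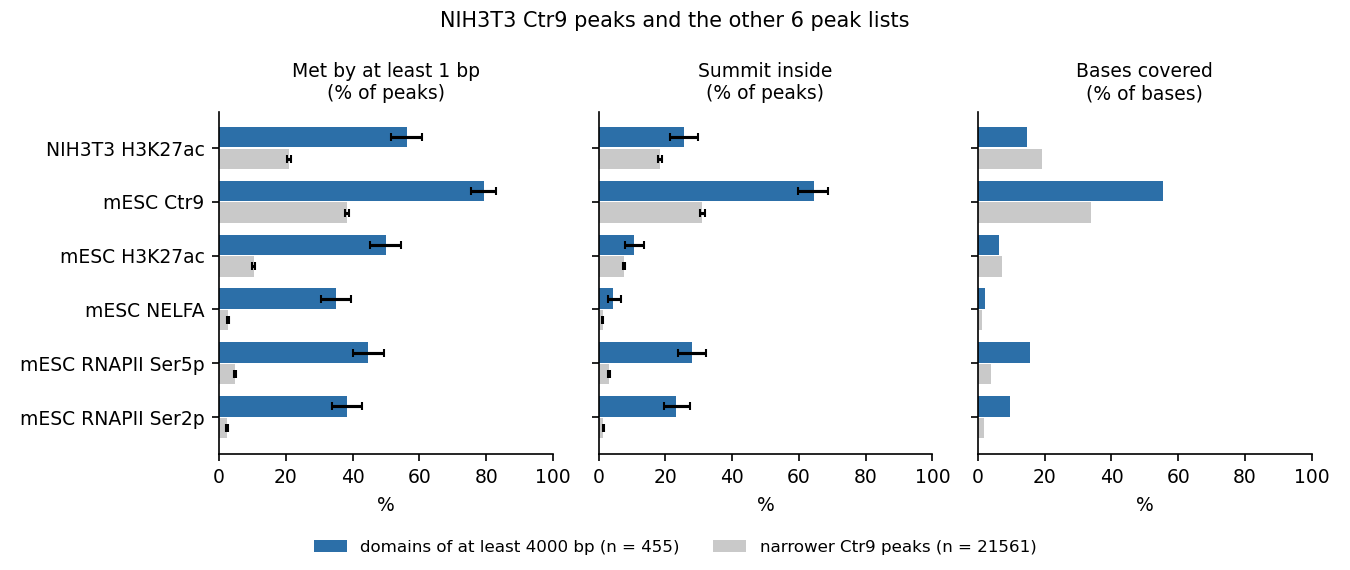
Overlap of the 455 domains (blue) and the 21561 narrower NIH3T3 Ctr9 peaks (grey) with the other 6 peak lists: share met by at least 1 bp, share with the summit inside a peak, and share of bases covered (all in %; error bars are exact 95% intervals of the first 2 measures). The blue bars exceed the grey ones for Ctr9, NELFA, RNAPII Ser5p and RNAPII Ser2p of mESCs in all 3 panels, while for H3K27ac of both cell types the share of bases is lower in the domains (14.6% against 19.1%, and 6.34% against 7.13%).

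Where along a gene the domains lay was read from the 214 domains with exactly 1 protein-coding gene within 5 kb, at 176 genes, beside 13786 narrower peaks chosen in the same way. The summit lay past the gene end at 63 of these domains, 29.4% (23.4 to 36.0%), and at 17.1% of the narrower peaks (16.5 to 17.8%). It lay in the gene body at 60.3% (53.4 to 66.9%), against 72.3% (71.6 to 73.1%), within 1 kb of the start at 8.88%, against 8.70%, and upstream at 1.40%, against 1.84%. Summits past the end were a median of 2154 bp beyond it, with quartiles of 899 and 4258 bp, and those of the narrower peaks 2184 bp. The domain itself ran over the gene end at 70 of the 214 (32.7%), for a median of 2586 bp and up to 14075 bp, and over the start at 31 (14.5%); a wide interval crosses either border more easily than a narrow one. At Tra2b the domain began 7 bp after the gene start, covered the 21457 bp of the gene and went on for 12038 bp past its end, and its summit lay 2609 bp past the end. Of all 455 domains 396 overlapped a protein-coding gene body (87.0%, 83.6 to 90.0%), where 74.1% of all Ctr9 peaks did, and 70.1% of their bases were in such a body, against 69.8% for all Ctr9 peaks.

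Averaged over the 155 of these genes whose body a domain overlapped, the domains covered from 36.4% to 52.0% of the bases along the body past its initial 5%, rose again toward the end and peaked at 57.6% in the 500 bp after it. At 4.5 to 5 kb past the end the value was 22.1%, and upstream of the start it stayed at 6.12% or less. These genes were chosen for a domain on the body, which favours domain coverage there over the flanks, so these values are a description. The Ctr9 peaks of mESCs, which played no part in the choice of the genes, covered 72.1% of the bases between 0.5 and 1.5 kb past the end and 35.5 to 55.3% along most of the body. NIH3T3 H3K27ac was highest over the initial 5% of the body (70.7%) and fell to 5.43% at its end. In mESCs, RNAPII Ser5p had a maximum at the start (26.9%) and another past the end (17.8%), Ser2p a single maximum past the end (18.9%), and NELFA a maximum at the start (17.9%).

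**Figure D5:**
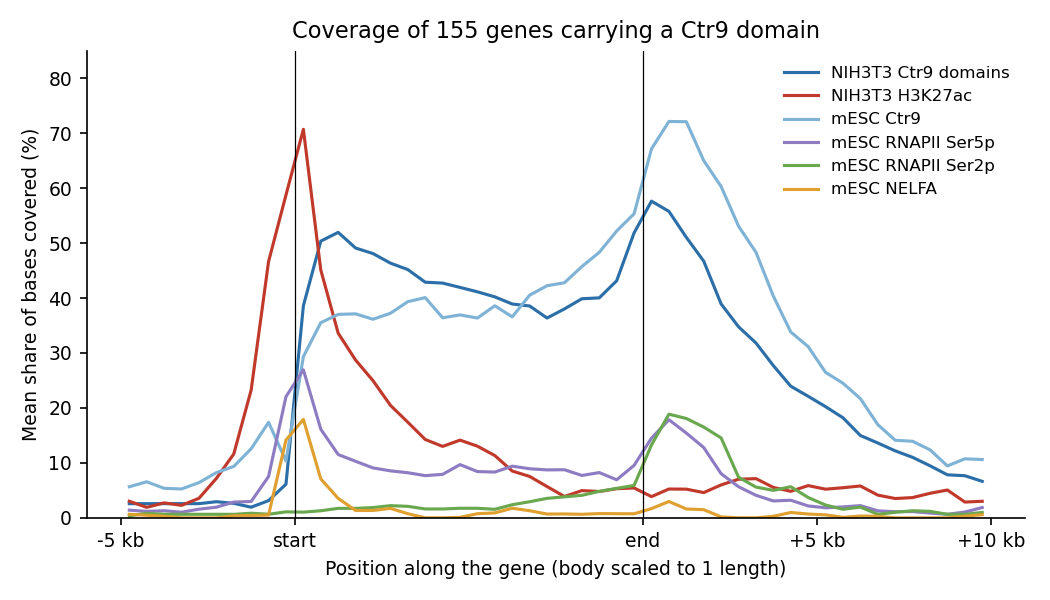
Mean share of bases (%) covered by the NIH3T3 Ctr9 domains and by 5 other peak lists along 155 genes that carry a domain and have no other protein-coding gene nearby, with the gene body scaled to 1 length and the flanks in kb from the start and the end. The domains reach 57.6% just past the gene end and mESC Ctr9 72.1%, whereas NIH3T3 H3K27ac has its maximum of 70.7% at the gene start.

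At 26 domains no protein-coding gene, counted with the 5000 bp past its end, was touched, and 12 of these held non-coding genes. The widest, chr4:88905742-88926759 with 21018 bp and a fold enrichment of 16.4, covered 16905 bp of the long non-coding RNA AL805899.1, at 45.3 TPM in NIH3T3 cells and 0.215 TPM in mESCs, and the hairpin of miR-31. It met no other list, and the nearest protein-coding gene, Ifne, was 25540 bp away and listed at 0. Malat1, a nuclear non-coding RNA, was covered to 100% by a domain of 9831 bp at 112 TPM in NIH3T3 cells and 24.5 TPM in mESCs, and this domain met all 6 lists. Neat1, the RNA scaffold of paraspeckles, was covered to 69.4% by 2 domains at 58.1 and 42.7 TPM. Hosts of small nucleolar RNAs were Zfas1 at 109 TPM, Snhg15 at 41.9 TPM and Snhg17 at 11.8 TPM. A domain of 6788 bp lay inside 3110039I08Rik, at 83.0 TPM in NIH3T3 cells and 0.481 TPM in mESCs, and Pvt1, next to Myc, carried 1 domain of 6337 bp among 150 Ctr9 peaks over its body of 340111 bp. The remaining 14 domains had no non-coding gene other than pseudogenes. The 2 widest of these, of 11080 bp (nearest gene Klf14, 89585 bp away) and 7716 bp (nearest gene Slc6a15, 159131 bp away), met no other list, and 13 of the 26 domains met none.

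Few domains lay at genes without RNA. The leading gene was under 1 TPM at 36 domains, and at 30 of these another gene in reach had at least 10 TPM, as at Ankmy1 with Gpc1, Shcbp1l with Dhx9 (143 TPM), Gm49776 with Ranbp1 (407 TPM) and Gm21885 with Luc7l3 (61.2 TPM), each of these leading genes being listed at 0. At 6 domains no protein-coding gene reached 1 TPM, which were those led by Fosb (0.486 TPM, 8313 bp), Dnah17 (0.548 TPM), Fam227b (a domain of 6030 bp beside the widest), Rims3, Lhfpl5 and Prss12. The domain at Prss12, of 4420 bp, met all 6 other lists and held Snhg8, a non-coding host of a small nucleolar RNA on the minus strand, at 249 TPM in NIH3T3 cells and 60.3 TPM in mESCs. The domain at Rims3, with a fold enrichment of 17.8, held only a pseudogene and a small nuclear RNA, both listed at 0, and that at Lhfpl5, with 9.40, held no annotated non-coding gene and met no other list.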

How the data were processed

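ChIP-seq and RNA-seq values of mouse cells were used as deposited. For ChIP-seq, the authors used Bowtie2 2.3.5.1 (genome mm10), left out blacklisted reads and took peaks from MACS2 2.2.6 with q-values below 0.01; whether the inputs entered the call is not given in the sources used here. In each deposited list the fold enrichment is a ratio of pileup to local background at the summit, −log10 p and −log10 q describe the same base, and the score is derived from q. Transcripts of GENCODE M19 were quantified by the authors with kallisto 0.46.1, as deposited TPM and estimated counts. Estimated counts add up to 28849497 in NIH3T3 cells and 26400407 in mESCs; the peak lists hold no read counts, so the ChIP-seq depth is unknown. The −log10 p, score and estimated counts entered no result.

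A gene's TPM was that of its transcript of highest TPM. Genes came from GENCODE M21 (21938 protein-coding on the chromosomes, 21905 with a TPM). The leading gene shared most bases with a domain over body and 5000 bp downstream, overlap meant at least 1 bp, and fold changes are differences of log2(TPM + 1), called from 2-fold. Python 3.11.15, pandas 2.3.3, NumPy 2.4.6, SciPy 1.17.1 and Matplotlib 3.10.9 were used, and the interval code passed 6 of 6 checks on simulated data. Members, gene lists and comparisons were chosen with earlier results of these data known. Named genes are the leads of the 15 widest domains, the 10 of highest and 5 of lowest TPM, the 5 sharing most with mESC Ctr9, the 5 most covered by H3K27ac, the widest without a gene, those at the width limit, list members and 4 genes fixed by name (Col1a1, Col1a2, Col5a1 and Ppia); others were named after their values were seen, and some items that the rule selects are not reported here. Alternatives changed the width limit, overlap rule, q threshold, gene assignment, TPM summary and pseudocount.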

Additional observations from a re-analysis of the deposited data

How the results depend on the processing

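No paired analysis was possible because each group holds 1 library. The number of domains was 703 with a limit of 3000 bp and 1392 with peaks joined over gaps of up to 1000 bp. The share of domains on a protein-coding gene was 90.1% with 1 kb added on each side of the gene, 66.6% when at least 50% of the domain had to lie in 1 gene, 60.4% by summit and 90.4% with a limit of 5000 bp. The median TPM of the leading genes was 167 with TPM summed over transcripts and 152 with the gene of highest TPM, an alternative chosen after seeing the data. By summit, the shares of domains overlapping were 25.5% for NIH3T3 H3K27ac, 64.4% for mESC Ctr9, 10.5% for mESC H3K27ac, 4.40% for NELFA, 27.9% for Ser5p and 23.3% for Ser2p. With at least 10% of the domain covered they were 49.5% for NIH3T3 H3K27ac, 32.5% for mESC H3K27ac, 5.27% for NELFA, 33.8% for Ser5p and 29.2% for Ser2p. With limits of 3000 and 5000 bp they were 43.5% and 55.9% for mESC H3K27ac, 27.5% and 41.2% for NELFA, 37.4% and 51.1% for Ser5p, and 29.7% and 44.4% for Ser2p. The other 24 values, which include all those with peaks of −log10 q of at least 5 and all those of the log2 difference in TPM, stayed within the interval of the share, within 1.5 times the count or median, or within 0.1 on the log2 scale. The cause of the changes was not tested, apart from those that follow from a stricter overlap or a different width. With 1 library a group, depth of the ChIP-seq unknown and the strand not read, neither differences between libraries and cell types nor overlapping genes can be told apart.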

Other observations

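Eef2 and Actg1, at 2475 and 1186 TPM in NIH3T3 cells, carried no domain and no Ctr9 peak of any width, and no H3K27ac peak of NIH3T3 cells lay within 5 kb of them. No Ctr9 or H3K27ac peak of mESCs lay there either, where they stood at 1979 and 599 TPM. Other genes above 1000 TPM without any Ctr9 peak were Prl2c2, Gm11361, Gm10260 and Gm2000. The authors removed reads of blacklisted regions before the peak call, and whether that touches these genes was not tested. These genes were named after their values were seen.

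By chromosome, the domains ran from 0 on Y and 0.0351 per Mb on X to 0.391 per Mb on chromosome 19. Chromosome 14 held 8 domains and 465 Ctr9 peaks of NIH3T3 cells against 1961 of mESCs, and chromosome 15 held 25 domains and 1500 Ctr9 peaks against 2046. The H3K27ac lists held 1155 peaks of NIH3T3 cells and 860 of mESCs on chromosome 14 and 1665 and 757 on chromosome 15. The cause was not tested.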
